A study of Macaca mulatta with 51 samples.

Results

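The genes of excitation-contraction coupling were examined in skeletal muscle (SM) across 3 time points of a fibroblast growth factor 21 (FGF21) treatment. The set was chosen with earlier results of these data known, and its rows were taken by gene symbol. It lists 10 genes: RYR1, CACNA1S, CACNB1, STAC3, JPH1, JPH2, TRDN, ASPH, SLN and PVALB. Of these, 9 have a row among the 16033 genes of the count table, and all 9 passed the filter on low counts. RYR1, the calcium release channel itself, was not analysed here.

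Gastrocnemius biopsies came from adult obese rhesus macaques, males and ovariectomized females, that stayed on a diet rich in fat and sucrose throughout. The animals were sampled before treatment (pre-treatment, 6 libraries), after 12 weeks of daily subcutaneous native human FGF21 in rising doses (post-treatment, 8 libraries) and 16 weeks after the last dose (washout, 7 libraries). Libraries came from 8 animals, with 6 animals measured at both pre- and post-treatment, 7 at both post-treatment and washout, and 6 at both pre-treatment and washout. All animals were treated, so the drug and the passing of time cannot be told apart. The paper also reports weight loss over the treatment and regain in washout, which cannot be told apart from the drug either. Each punch biopsy is a mixture in which fewer cells of a type and less RNA per cell cannot be told apart.

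In a muscle fibre, an action potential travels into the transverse tubules, where the voltage sensing dihydropyridine receptor sits opposite the calcium release channel of the sarcoplasmic reticulum. In skeletal muscle the receptor opens the release channel through mechanical contact, which depends on its beta subunit and on an adaptor protein. Junctophilins hold the tubule and the reticulum membranes together, triadin and junctin anchor the release channel to the calcium buffer inside the reticulum, and calcium is then cleared by a reticulum pump and by soluble buffers of the cytoplasm. Fast fibres are rich in this machinery.

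SM libraries held between 14455195 and 21740711 counts assigned to genes, with a median of 17114678. Levels are given in CPM, counts scaled to the size of the library, after trimmed mean normalization within SM, which allows a gene to be compared between libraries but not with another gene, because no transcript lengths were used. Differences between the libraries bear on all that follows. In 4 of the 8 post-treatment libraries (animals 20275, 21189, 21866 and 24849), 10 markers of muscle fibres such as ACTA1, CKM and TTN summed to 42794 to 84700 CPM, below every other SM library, where the sum was at least 101387 CPM. The sum was 101387 to 136127 CPM pre-treatment (median 125854) and 131750 to 175394 CPM at washout (median 164678). In the other 4 post-treatment libraries it was 164243 to 170916 CPM. Leaving out the 4 low libraries therefore leaves post-treatment libraries that all lie above the pre-treatment ones in fibre markers. They come from animals 19832, 20456, 22130 and 23004, and 20456 has no pre-treatment library with counts. Fits without the 4 low libraries thus rest on fewer animals paired with post-treatment. In them the change of animals cannot be told apart from that of fibre content. In the 4 low libraries 8 fibroblast and matrix markers summed to 6413 to 26372 CPM, against 278 to 680 CPM in the other 4 post-treatment libraries, 542 to 6986 CPM pre-treatment and 441 to 6516 CPM at washout. Macrophage markers summed to 87.4 to 120 CPM in the same 4 and to 13.7 to 23.0 CPM in the other 4. Their sums at the other time points spanned both, with 21.1 to 124 CPM pre-treatment and 18.1 to 234 CPM at washout. Markers of satellite cells and regenerating or denervated fibres summed to 205 to 3485 CPM in the 4 low libraries (median 727). They summed to 155 to 243 CPM in the other 4, 153 to 612 CPM pre-treatment and 136 to 294 CPM at washout, so the ranges overlapped. The library identifiers fall into 3 number series that are spread unevenly over time points, with 6 of 7 washout libraries but 3 of 8 post-treatment and 2 of 6 pre-treatment libraries in the last series. All 3 post-treatment libraries of the last series are among the 4 with low fibre markers, so the series and the fibre content overlap as well. The other 4 post-treatment libraries are all in the first series.

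None of the 9 genes passed the test in any of the 3 comparisons. A gene was called changed if its adjusted p was below 0.05, with an absolute log2 fold change above 0.26, in an edgeR quasi-likelihood fit with animal as a block and Benjamini-Hochberg adjustment over the 12617 genes tested. Few genes were called among all genes: 0% post- vs pre-treatment, 0.19% for washout vs post-treatment and 0.0634% for washout vs pre-treatment. For washout vs pre-treatment in SM the paper reports far more genes at the same limits, using voomWithQualityWeights of limma. That method called 11 of the 12617 genes here, and the reason for the difference was not tested. At an unadjusted p under 0.05, 2 of the 9 were lower post- vs pre-treatment (CACNB1 and PVALB, against 3.24% of all genes in either direction). Likewise 2 of the 9 were higher at washout vs post-treatment (JPH2 and TRDN, against 17.3%), and 1 of the 9 was lower at washout vs pre-treatment (PVALB, against 13.4%). The median log2 fold change of the 9 genes was -0.22, 0.21 and -0.19 in these comparisons, against -0.02, -0.03 and -0.05 over all genes. The comparisons share libraries, so their values for a gene are not independent of each other.

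**Figure D1:**
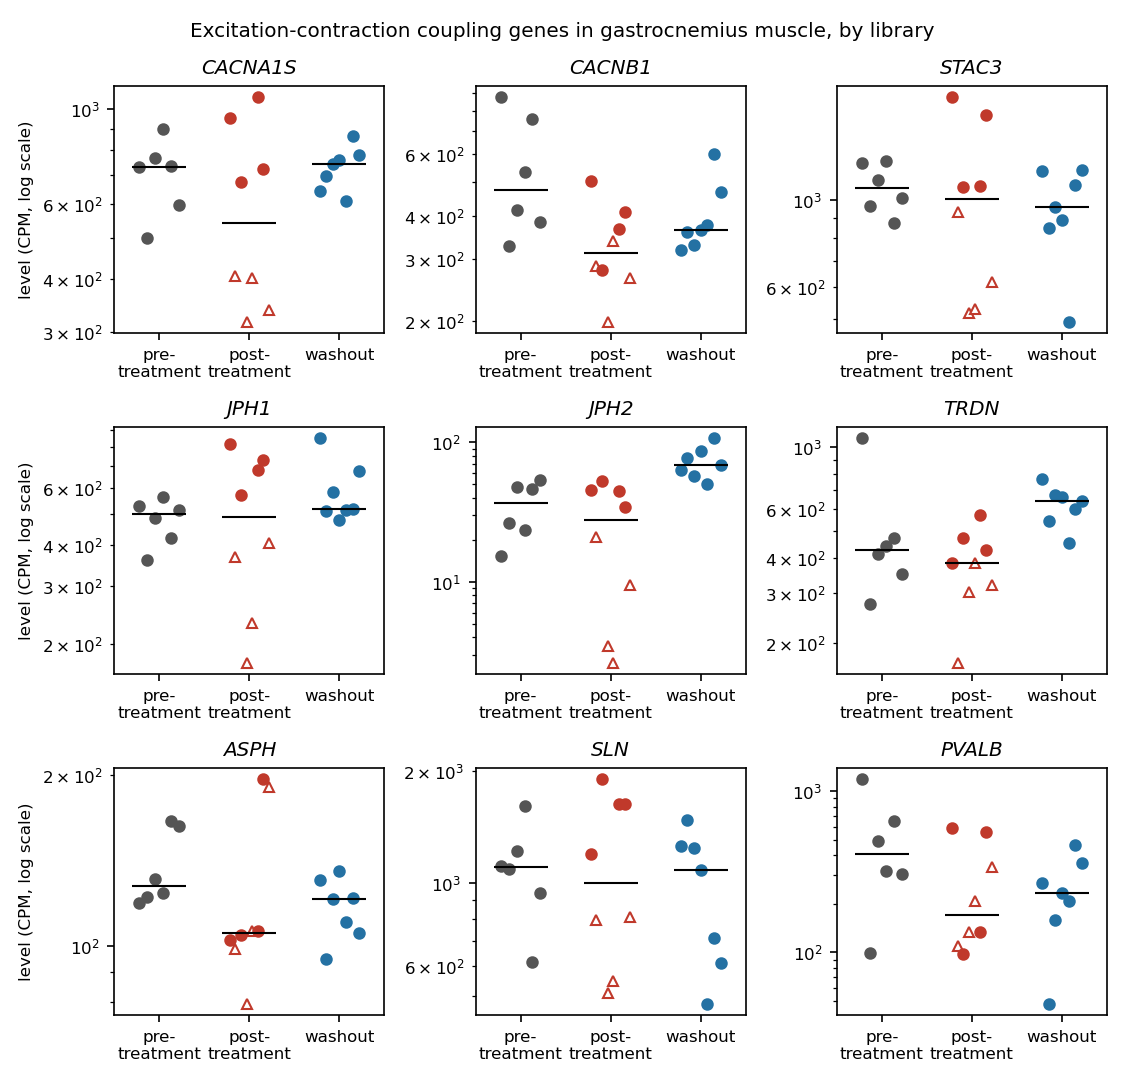
Level of each gene in every SM library, in CPM on a log scale, by time point (6 pre-treatment, 8 post-treatment and 7 washout libraries); bars mark the medians and open triangles mark the 4 post-treatment libraries with low muscle fibre markers. For JPH2 the washout libraries lie between 50.6 and 107 CPM and the triangles between 2.62 and 21.1 CPM, while PVALB spreads widely at every time point.

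CACNA1S encodes the pore and voltage sensor of the dihydropyridine receptor, and in these data it was set apart more by library than by time point. Its level ran from 500 to 896 CPM pre-treatment (median 733), from 317 to 1065 CPM post-treatment (median 539) and from 610 to 864 CPM at washout (median 744). The post-treatment libraries spanned the whole range of the other 2 time points and beyond, and they fell into separate ranges, 317 to 406 CPM in the 4 libraries with low fibre markers and 673 to 1065 CPM in the other 4. The log2 fold change was -0.22 (SE 0.25, adjusted p = 0.9996) post- vs pre-treatment and 0.30 (SE 0.23, adjusted p = 0.531) at washout vs post-treatment. Without those 4 libraries both values changed sign, to 0.32 and -0.18 (adjusted p = 0.378 and 0.659). Washout and pre-treatment differed by 0.08 (SE 0.24, adjusted p = 0.915).

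CACNB1, the beta subunit that carries the receptor to the tubule membrane, was lower post-treatment in all 6 animals with both samples. Levels were 328 to 873 CPM pre-treatment (median 474), 198 to 503 CPM post-treatment (median 312) and 318 to 599 CPM at washout (median 364). The ranges overlapped, and animals 19832 and 23004 had the highest levels both pre-treatment (873 and 758 CPM) and post-treatment (503 and 411 CPM). The log2 fold change post- vs pre-treatment was -0.67 (SE 0.20), a ratio of 0.63, but its adjusted p was 0.9996 in a comparison in which no gene was called. Without the 4 libraries with low fibre markers it was -0.49 (SE 0.23, adjusted p = 0.265). At washout CACNB1 was higher than post-treatment in 6 of 7 animals by 0.34 (SE 0.19, adjusted p = 0.371) and differed from pre-treatment by -0.33 (SE 0.20, adjusted p = 0.483).

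STAC3, the adaptor that couples the receptor to the release channel, showed no fitted difference larger than its standard error over all libraries. It lay at 877 to 1257 CPM pre-treatment, 516 to 1826 CPM post-treatment and 491 to 1194 CPM at washout, with medians of 1071, 1006 and 958 CPM. The log2 fold changes were -0.07 (SE 0.27) post- vs pre-treatment, -0.15 (SE 0.25) at washout vs post-treatment and -0.22 (SE 0.26) at washout vs pre-treatment, with adjusted p of 0.9996, 0.785 and 0.764. The post-treatment spread again followed the fibre markers, with 516 to 935 CPM in the 4 libraries low in them and 1078 to 1826 CPM in the other 4. Without the former, STAC3 was at 0.42 (SE 0.24, adjusted p = 0.345) post- vs pre-treatment and -0.58 (SE 0.23, adjusted p = 0.286) at washout vs post-treatment.

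JPH1 and JPH2 both encode junctophilins, JPH1 being the form typical of skeletal muscle and JPH2 a form shared with the heart. JPH1 levels were 361 to 561 CPM pre-treatment (median 500.1), 175 to 817 CPM post-treatment (median 488) and 478 to 851 CPM at washout (median 517). The 4 libraries with low fibre markers held 175 to 406 CPM, and the other 4 post-treatment libraries held 571 to 817 CPM, above all 6 pre-treatment libraries. The fitted change of JPH1 was 0.05 (SE 0.24) post- vs pre-treatment and 0.21 (SE 0.23, adjusted p = 0.659) at washout vs post-treatment. Without the 4 libraries these became 0.57 (SE 0.17, adjusted p = 0.161) and -0.22 (SE 0.16, adjusted p = 0.511). Washout and pre-treatment differed by 0.26 (SE 0.24, adjusted p = 0.676).

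JPH2 had the widest relative range of the 9 genes, from 2.62 to 107 CPM (63 to 1751 counts), a 40.8-fold span, and its highest levels were at washout. Pre-treatment it measured 15.2 CPM in animal 19832, 26.4 in 20275, 47.5 in 21189, 23.3 in 22130, 46.6 in 23004 and 53.4 in 24849. Post-treatment the same animals gave 45.5, 21.1, 3.48, 44.4, 34.6 and 9.50 CPM, and animals 20456 and 21866 gave 52.4 and 2.62 CPM. The 4 lowest post-treatment values belong to the 4 libraries with low fibre markers. At washout JPH2 reached 63.4 CPM in animal 19832, 77.9 in 20275, 57.7 in 20456, 86.9 in 21189, 50.6 in 22130, 107 in 23004 and 68.8 in 24849. Every animal with a washout library was higher then than in its own earlier samples. The washout range met the pre- and post-treatment ranges only at its lowest library.

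Mean JPH2 was 35.4 ± 15.7 CPM pre-treatment (SD, n = 6), 26.7 ± 20.1 CPM post-treatment (SD, n = 8) and 73.2 ± 19.2 CPM at washout (SD, n = 7). The log2 fold change at washout was 1.36 (SE 0.50) vs post-treatment, higher in 7 of 7 animals, and 0.99 (SE 0.51) vs pre-treatment, higher in 6 of 6 animals. Neither passed adjustment in edgeR (adjusted p = 0.201 and 0.409), and post- vs pre-treatment gave -0.37 (SE 0.55, adjusted p = 0.9996). When the 4 libraries with low fibre markers were left out, washout vs post-treatment fell to 0.48 (SE 0.28, adjusted p = 0.420), post- vs pre-treatment turned to 0.71 (SE 0.30, adjusted p = 0.236), and washout vs pre-treatment became 1.19 (SE 0.24, adjusted p = 0.0268), the only call among the 9 genes in that fit. In it, 2.58% of 12500 genes were called for washout vs pre-treatment and 0% for washout vs post-treatment. That fit still sets washout libraries with a median fibre marker sum of 164678 CPM against pre-treatment libraries with a median of 125854 CPM.

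**Figure D2:**
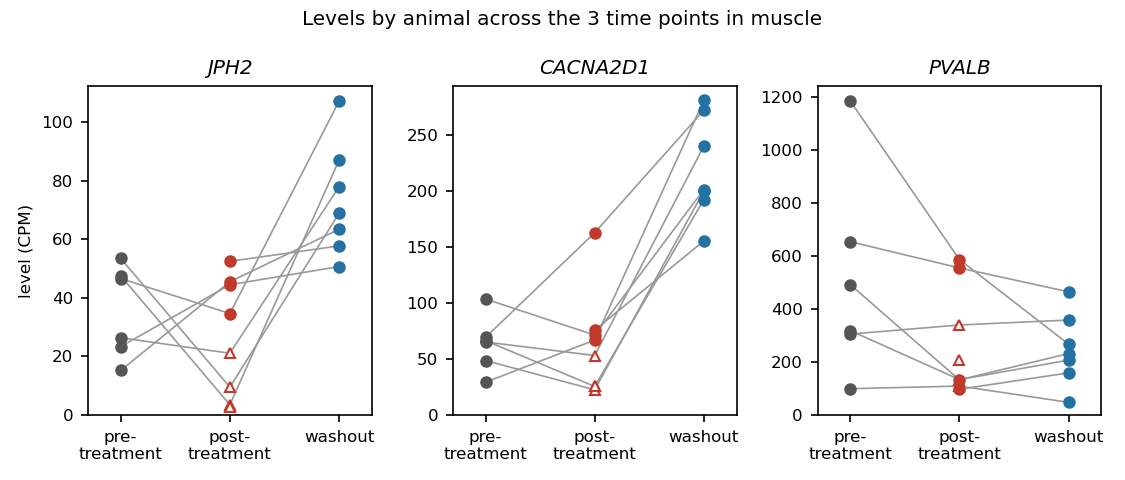
Levels of JPH2, CACNA2D1 and PVALB in CPM at the 3 time points, with a grey line joining the samples of an animal; open triangles mark the 4 post-treatment libraries with low muscle fibre markers. JPH2 and CACNA2D1 are highest at washout in every animal with a washout library, and PVALB is lower at washout than pre-treatment in 5 of 6 animals.

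The spread of the junctophilins was set against fibre content by dividing each level by the summed fibre markers of its library. JPH1 then lay within 2.88 to 4.97 CPM per 1000 CPM of fibre markers in all 21 libraries, with medians of 4.02 pre-treatment, 4.21 post-treatment and 3.65 at washout. For CACNA1S the ratio lay within 3.65 to 7.42. JPH2 did not settle to a common ratio, and it was not alone in this. Over all libraries PVALB lay within 0.2903 to 9.75, CACNB1 within 1.64 to 7.48 and TRDN within 2.003 to 8.83. ASPH lay within 0.577 to 2.297, STAC3 within 3.73 to 12.05 and SLN within 3.58 to 11.86. The JPH2 ratio was 0.125 to 0.459 pre-treatment and 0.361 to 0.692 at washout. It was 0.207 to 0.310 in the 4 post-treatment libraries rich in fibre markers, and 0.0376 to 0.249 in the 4 low ones. These ratios are a description, and the part of fibre content in the JPH2 difference was not tested further.

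**Figure D3:**
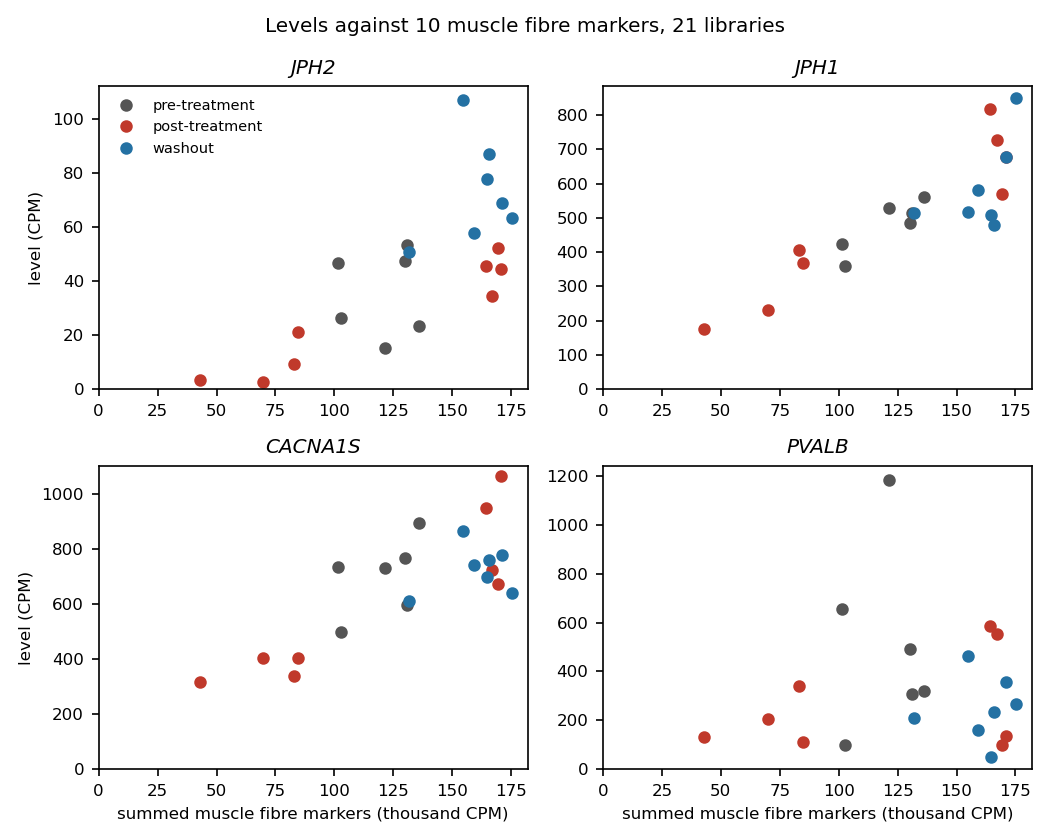
Levels of JPH2, JPH1, CACNA1S and PVALB in CPM against the sum of 10 muscle fibre markers in units of 1000 CPM, with 1 point per SM library, coloured by time point. CACNA1S is lowest in the 4 post-treatment libraries with the lowest marker sums, JPH1 is at 406 CPM or less in them, JPH2 is higher at washout than in post-treatment libraries of like sums, and PVALB follows no such order.

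TRDN encodes triadin, the anchor between the release channel and calsequestrin, and after JPH2 it had the largest fitted rise at washout among the 9 genes. Levels were 275 to 1073 CPM pre-treatment (median 429), 170 to 569 CPM post-treatment (median 386) and 455 to 768 CPM at washout (median 643). The pre-treatment range owes its top to animal 19832 at 1073 CPM, the next library being at 471 CPM. TRDN was higher at washout than post-treatment in 6 of 7 animals by 0.77 (SE 0.23), a ratio of 1.71, with an edgeR adjusted p of 0.137. DESeq2, an alternative test, gave 0.79 with an adjusted p of 0.0272 and called 2.85% of all genes in this comparison. Of 20 alternative fits it was the only 1 to call TRDN here. Another test, voomWithQualityWeights of limma, gave 0.76 with an adjusted p of 0.146. In edgeR without the 4 libraries low in fibre markers, the same comparison gave 0.53 (SE 0.27, adjusted p = 0.359). TRDN lay at 170 to 386 CPM in those 4 libraries and at 386 to 569 CPM in the other 4 post-treatment libraries. Washout vs pre-treatment gave 0.39 (SE 0.24, adjusted p = 0.493), and post- vs pre-treatment gave -0.38 (SE 0.24, adjusted p = 0.9996). Without animal 19832 these were 0.59 (SE 0.23, adjusted p = 0.704) and -0.15 (SE 0.23, adjusted p = 0.990), and without the 4 libraries low in fibre markers the latter was -0.11 (SE 0.28, adjusted p = 0.847).

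ASPH is the locus of junctin and junctate, which sit in the reticulum membrane, and also of an aspartyl beta-hydroxylase found in many tissues, and its reads were counted without telling these products apart. It had the narrowest relative range of the 9 genes, at 119 to 166 CPM pre-treatment, 79.3 to 196 CPM post-treatment and 95.1 to 136 CPM at washout. Its fitted changes were -0.16 (SE 0.17), -0.04 (SE 0.16) and -0.19 (SE 0.17) for post- vs pre-treatment, washout vs post-treatment and washout vs pre-treatment, with adjusted p of 0.9996, 0.934 and 0.670. In subcutaneous adipose tissue (AT) of the same study, normalized separately, ASPH ran from 475 to 3486 CPM, above every SM library. The other genes with a muscle role were low there: CACNA1S reached at most 0.240 CPM, TRDN 0.433 CPM, PVALB 1.65 CPM, JPH2 2.05 CPM and SLN 19.9 CPM. CACNB1 lay at 1.92 to 4.90 CPM, JPH1 at 2.91 to 18.1 CPM and STAC3 at 5.38 to 56.6 CPM.

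SLN encodes sarcolipin, a small membrane protein that inhibits the calcium pump of the reticulum. It ranged over 615 to 1614 CPM pre-treatment (median 1103), 508 to 1902 CPM post-treatment (median 1003) and 475 to 1483 CPM at washout (median 1088). The log2 fold change was 0.02 (SE 0.33) post- vs pre-treatment, -0.28 (SE 0.32, adjusted p = 0.680) at washout vs post-treatment and -0.26 (SE 0.33, adjusted p = 0.775) at washout vs pre-treatment. The 4 post-treatment libraries with low fibre markers held 508 to 810 CPM and the other 4 held 1196 to 1902 CPM, so these groups did not overlap. Without the former, SLN was at 0.58 (SE 0.32, adjusted p = 0.329) post- vs pre-treatment and -0.80 (SE 0.31, adjusted p = 0.283) at washout vs post-treatment.

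PVALB encodes parvalbumin, the soluble calcium buffer of fast fibres, and had the lowest washout level relative to pre-treatment of the 9 genes. It ran from 99.3 to 1185 CPM pre-treatment (median 405), from 97.3 to 587 CPM post-treatment (median 170.3) and from 47.8 to 465 CPM at washout (median 232), a 24.8-fold span over all libraries. Animals differed much, with 20275 at 99.3, 109 and 47.8 CPM over the 3 time points and 23004 at 654, 555 and 465 CPM. The fitted change was -0.74 (SE 0.30, adjusted p = 0.9996) post- vs pre-treatment, where 4 of 6 animals were lower, and -0.79 (SE 0.30, adjusted p = 0.305) at washout vs pre-treatment, where 5 of 6 were lower. Washout vs post-treatment gave -0.05 (SE 0.28, adjusted p = 0.943). Without the 4 libraries with low fibre markers the first 2 values were -0.80 and -0.74 (adjusted p = 0.217 and 0.129), and PVALB did not separate those libraries (109 to 340 CPM) from the other 4 (97.3 to 587 CPM). Beside this, 7 markers of slow fibres summed to medians of 6568 CPM pre-treatment, 5503 CPM post-treatment and 13358 CPM at washout, and ranges of 98.1 to 9977, 502 to 33823 and 2825 to 28585 CPM. The medians of 10 fast fibre markers were 148391, 130403 and 152814 CPM. The part of fibre type in the PVALB difference was not tested.

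**Figure D4:**
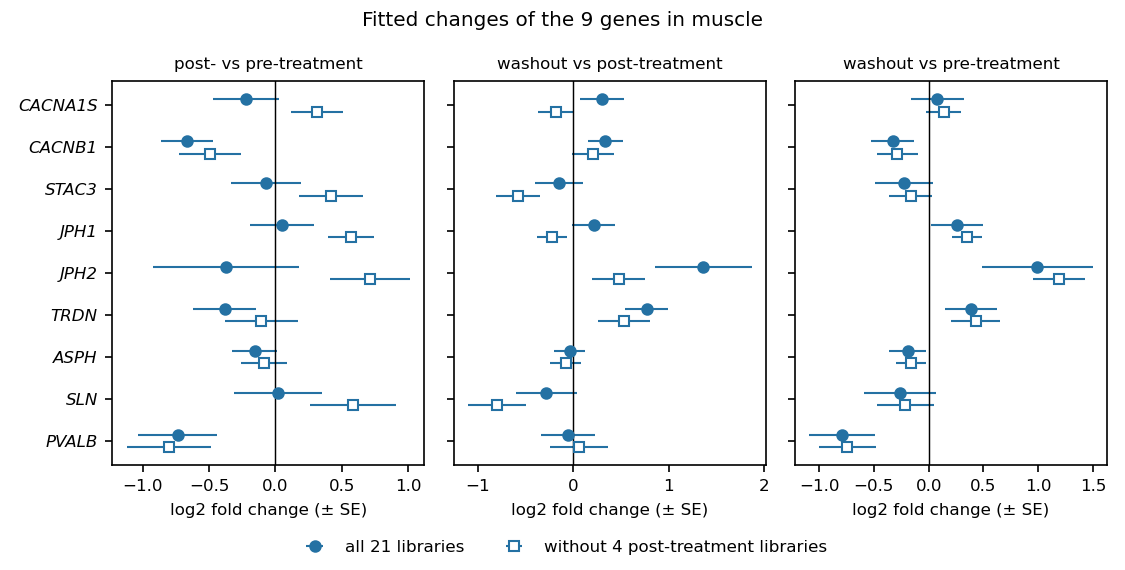
Log2 fold change of each gene with its standard error in the 3 SM comparisons, from the edgeR fit to all 21 libraries (filled circles) and without the 4 post-treatment libraries low in muscle fibre markers (open squares). CACNA1S, STAC3 and JPH2 move from below to above 0 post- vs pre-treatment when those libraries are left out, whereas the values for washout vs pre-treatment stay close to each other.

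The number series of the library identifiers moved several of these values. With the series as a covariate, JPH2 was called at washout vs post-treatment (log2 fold change 2.77, SE 0.56, adjusted p = 0.00857), as was JPH1 (0.76, SE 0.22, adjusted p = 0.0305), when 21% of all genes were called. JPH2 was also called at washout vs pre-treatment (1.94, SE 0.50, adjusted p = 0.0338), when 10.7% were called. Series and fibre content overlap among the post-treatment libraries, so the fit with this covariate cannot tell them apart. Within the last series, without the animal block, 4 of the 9 genes were called higher at washout vs post-treatment: JPH2 (3.84, adjusted p = 0.000362), CACNA1S (1.02, adjusted p = 0.00272), JPH1 (1.10, adjusted p = 0.0140) and STAC3 (0.76, adjusted p = 0.0455), when 35.9% of 12737 genes were called. That fit sets 6 washout libraries against the 3 post-treatment libraries that were all low in fibre markers.

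A wider list of 48 genes of muscle calcium handling (calsequestrins, pumps, exchangers, calcium dependent kinases, triad proteins and further channel subunits) was examined beside the 9. Of these, 37 have a row and 36 were tested. Only CACNA2D1, the alpha2delta subunit of the dihydropyridine receptor, was called, and only at washout vs post-treatment. At an unadjusted p under 0.05, 2 of the 36 passed post- vs pre-treatment (1 higher and 1 lower, against 3.24% of all genes), 7 at washout vs post-treatment (5 higher and 2 lower, against 17.3%) and 6 at washout vs pre-treatment (5 higher and 1 lower, against 13.4%), shares close to those of all genes. The median log2 fold changes of the list were -0.11, 0.23 and 0.03, against -0.02, -0.03 and -0.05 over all genes.

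CACNA2D1 lay at 29.2 to 104 CPM pre-treatment (mean 63.7 ± 24.7, SD, n = 6), at 22.5 to 163 CPM post-treatment (63.0 ± 45.8, SD, n = 8) and at 155 to 281 CPM at washout (220.2 ± 45.7, SD, n = 7). Washout did not overlap pre-treatment and overlapped post-treatment only through animal 22130, at 163 CPM. The log2 fold change was 1.89 at washout vs post-treatment (SE 0.33, adjusted p = 0.0339), a ratio of 3.70, with 7 of 7 animals higher. It was 1.83 at washout vs pre-treatment (SE 0.34, adjusted p = 0.0650), with 6 of 6 animals higher, and -0.06 (SE 0.34) post- vs pre-treatment. Leaving out each animal in turn kept the call in 2 of 8 cases, with an adjusted p between 0.0210 and 0.187. Without the 4 libraries low in fibre markers, where CACNA2D1 was at 22.5 to 53.1 CPM, washout vs post-treatment was 1.30 (adjusted p = 0.246) and washout vs pre-treatment was 1.93 (adjusted p = 0.00858).

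Other genes of the list did not pass the test. PLN, which encodes phospholamban, the pump inhibitor of slow and cardiac muscle, had medians of 19.3, 26.1 and 48.5 CPM over the 3 time points and was higher at washout than pre-treatment in 6 of 6 animals by 1.05 (SE 0.24, adjusted p = 0.121). It was called in that comparison without the 4 libraries low in fibre markers (1.14, adjusted p = 0.0139) and with the series as a covariate (0.89, adjusted p = 0.0316). ATP2B1, a plasma membrane calcium pump, differed by 0.35 (SE 0.13, adjusted p = 0.284) at washout vs pre-treatment. Post- vs pre-treatment, the 3 genes with the smallest unadjusted p were STAC2 (-1.71, SE 0.58, at or below 5.27 CPM in every library), PLN (0.58, SE 0.24) and CAMK2A (-0.42, SE 0.22, lower in 6 of 6 animals), each with an adjusted p of 0.9996.

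**Figure D5:**
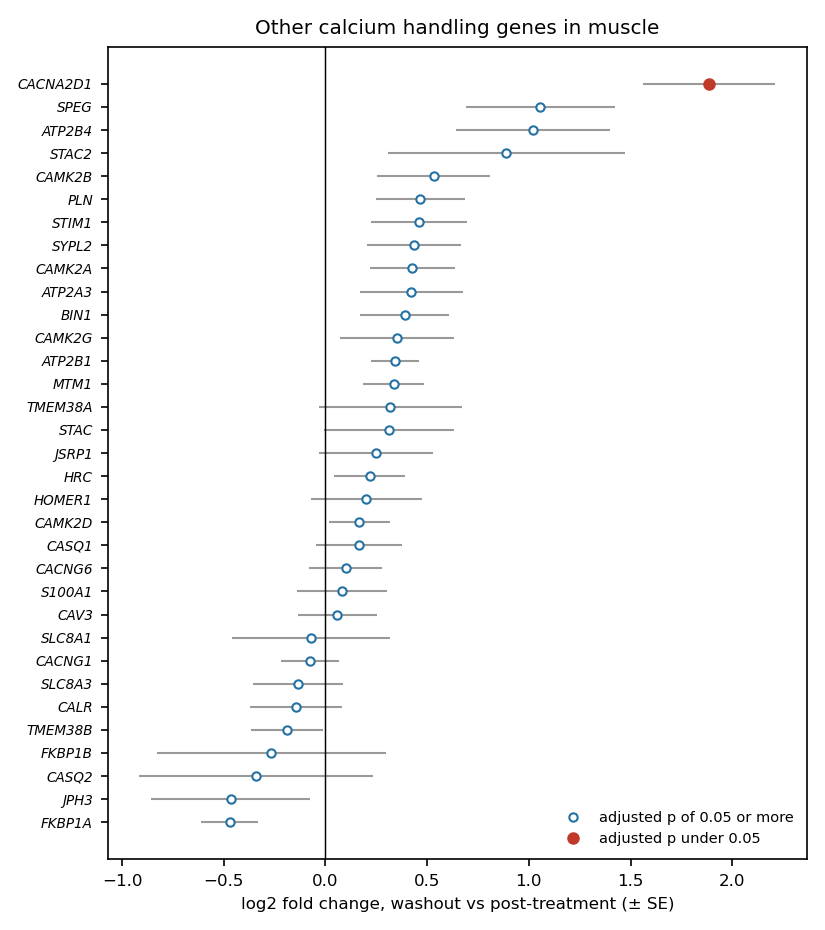
Log2 fold change with standard error of 33 of the 36 other calcium handling genes tested, washout vs post-treatment in SM, ordered by value. CACNA2D1, the filled point at 1.89, is the only gene of the list with an adjusted p below 0.05.

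Across the 21 SM libraries, the gene whose log2 level most resembled that of JPH2 was FBXL18 (Pearson r = 0.972, and 0.931 over the 17 libraries left without those low in fibre markers), among the 11144 genes that averaged 1 CPM or more. For PVALB it was SERPINE2 (r = 0.927 and 0.934), for TRDN it was ZNF30 (r = 0.817 and 0.660) and for JPH1 it was USP25 (r = 0.965 and 0.915), these being the 4 genes with the widest relative ranges. The libraries share animals, fibre content and identifier series, and these values describe likeness of level only.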

How the data were processed

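RNA was sequenced from punch biopsies of gastrocnemius SM and subcutaneous AT as paired-end poly(A) libraries. Per the authors, STAR placed the reads on the MacaM rhesus genome and genes were matched to human symbols. The deposited values are raw counts per gene, not normalized. Whether strand was used in counting is not given in the sources used here. Of 16103 entries, 70 repeats were dropped. Counts were available for 48 of 51 labelled samples, and 3 SM samples were not analysed here. Groups came from the labels, and replicates are animals.

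The 12617 genes that reached 0.5 CPM in 10% or more of SM libraries were scaled by TMM and tested in edgeR 4.0.16 (R 4.3.3) with the quasi-likelihood method, time point and animal in the model, and Benjamini-Hochberg adjustment over all of them. The standard error is the absolute log2 fold change divided by the square root of F. The biological coefficient of variation was 0.356. Animals pair the time points: deviations of same-animal SM libraries had a median correlation of 0.279 over 19 pairs (-0.248 to 0.606), against -0.0464 over 127 pairs of different animals. The fit was tried on simulated washout vs pre-treatment counts that held no animal, fibre marker or series differences. It recovered 160 of 200 changed genes, with 17 false calls. How it behaves where such differences are present was not tested.

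The genes and lists were chosen with earlier results of these data known. The text names all 9 genes, those of the wider list that were called or, where none was, the 3 with the smallest p, and for the 4 genes of widest relative range the gene of highest correlation. Some genes of the wider list are counted but not reported here singly. Further marker lists were summed in SM: over all libraries adipocyte markers gave medians of 1204, 1209 and 1173 CPM, endothelial 135, 119 and 167, smooth muscle 102, 137 and 131, erythroid 39.2, 55.3 and 839 (HBA1 and HBA2 listed at 0), and immediate early genes 182, 127 and 147 CPM pre-treatment, post-treatment and at washout. Alternatives used DESeq2 1.42.0, limma 3.58.1, other scalings and filters, no animal block, the identifier series, and each animal left out. The fit without the 4 libraries below 100000 CPM of fibre markers and an earlier quasi-likelihood method were added after seeing the data.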

Additional observations from a re-analysis of the deposited data

Results flagged for a closer look

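Of 42 sets of levels examined (14 genes at 3 time points in SM), 2 held a library far from the rest of its group, about as many as chance gives, since about 1 set in 20 is marked by chance. TRDN in the pre-treatment library of animal 19832 was at 1073 CPM, with the next library at 471 CPM. CACNA2D1 in the post-treatment library of animal 22130 was at 163 CPM, with the next library at 75.7 CPM.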

How the results depend on the processing

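Among all SM genes, 24 were called for washout vs post-treatment and 8 for washout vs pre-treatment. The first count was 9 with voomWithQualityWeights, 359 with DESeq2, 4 with library size scaling, 2 with only the 2 time points in the fit, 2648 with the identifier series as a covariate, 4576 within the last series and 0 without the 4 libraries low in fibre markers. The second was 179 with DESeq2, 22 with RLE scaling, 3 with library size scaling, 17 with a filter of 10 counts in every library, 1353 with the series covariate, 506 within the last series, 3 with the earlier quasi-likelihood method and 322 without the 4 libraries. With no replicate block for the animal the counts were 216 and 41, 1 gene of the wider list was called at washout vs pre-treatment, and no other call on the 9 genes or the wider list changed. Post- vs pre-treatment gave 245 calls within the last series and 1 without the 4 libraries.

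Of the 9 genes, 1 was called at washout vs post-treatment with DESeq2 (2.85% of all genes), 2 with the series covariate (21%) and 4 within the last series (35.9%). At washout vs pre-treatment, 1 was called with the series covariate (10.7% of all genes) and 1 without the 4 libraries (2.58%). Of the wider list, 4 genes were called lower post- vs pre-treatment within the last series, when 245 of 12737 genes were called. That fit set 3 post-treatment libraries, all low in fibre markers, against 2 pre-treatment libraries without the animal block. At washout vs post-treatment, 13 were called with the series covariate (12 higher and 1 lower, when 21% of all genes were called), 19 within the last series (16 higher and 3 lower, when 35.9% were called), and 0 with voomWithQualityWeights, with only 2 time points or without the 4 libraries. At washout vs pre-treatment it was 1 with voomWithQualityWeights, RLE scaling, the filter of 10 counts, only 2 time points or within the last series. Among all genes these fits called 11 and 22 of 12617, 17 of 10107, 9 of 12469 and 506 of 12737, in that order. The list had 2 calls with DESeq2 (179 of 12617 genes), 4 with the series covariate (10.7%) and 3 without the 4 libraries (2.58%).

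Leaving out each animal in turn gave 0 to 38 calls at washout vs post-treatment (0 without 19832 or 20275, 1 without 24849, 3 without 20456 or 21189, 7 without 23004, 29 without 21866 and 38 without 22130). It gave 0 to 16 calls at washout vs pre-treatment (0 without 19832, 1 without 20275 or 21189, 2 without 20456, 4 without 22130 or 24849, 13 without 21866 and 16 without 23004). In the wider list 0 to 1 genes were called at washout vs post-treatment and 0 in the other comparisons, and none of the 9 genes was called in these fits. The log2 fold change post- vs pre-treatment then ranged from -0.35 to 0.00044 for CACNA1S, -0.26 to 0.15 for STAC3, -0.11 to 0.34 for JPH1, -0.78 to 0.096 for JPH2 and -0.26 to 0.25 for SLN, and that at washout vs post-treatment from -0.16 to 0.097 for ASPH and -0.18 to 0.15 for PVALB.

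Direction changed in the following fits. With voomWithQualityWeights, post- vs pre-treatment was 0.033 for CACNA1S, 0.10 for STAC3 and 0.13 for JPH2. With only 2 time points it was -0.0033 for JPH1 and -0.079 for SLN. With the series covariate it was -0.11 for JPH1 and -0.20 for SLN, washout vs post-treatment was 0.44 for STAC3, 0.23 for SLN and 0.073 for PVALB, and washout vs pre-treatment was 0.17 for STAC3 and 0.032 for SLN. Within the last series, post- vs pre-treatment was -0.71 for JPH1, 0.066 for ASPH, -0.82 for SLN, 0.22 for STAC2 and -0.030 for PLN, washout vs post-treatment was 0.76 for STAC3, 0.57 for SLN and 0.20 for PVALB, and washout vs pre-treatment was -0.15 for TRDN. Without the 4 libraries, post- vs pre-treatment was 0.32 for CACNA1S, 0.42 for STAC3, 0.71 for JPH2 and 0.041 for CAMK2A, and washout vs post-treatment was -0.18 for CACNA1S, -0.22 for JPH1 and 0.061 for PVALB. With library size scaling CACNA1S was -0.019 at washout vs pre-treatment. The causes were not tested. Among the 9 genes, the sign held in every alternative run for CACNB1 in all 3 comparisons and for JPH2 in both comparisons with washout. It also held post- vs pre-treatment for PVALB and TRDN, and at washout vs post-treatment for TRDN. At washout vs pre-treatment it held for PVALB, JPH1 and ASPH as well. With 6 to 8 libraries at each time point and this spread between animals, changes smaller than those called may go undetected.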
